A study of Mus musculus with 11 samples.

Results

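The genes described here are 9 transcription factor genes of the macrophage lineage, Spi1, Cebpa, Cebpb, Runx1, Irf8, Maf, Mef2c, Zeb2 and Tfec, out of 21883 protein-coding genes of the mouse annotation (RefSeq, GRCm38.p6, the same build as mm10). They were chosen by name, with earlier results of these data known. A peak was counted for a gene when it lay inside it, within 1000 bp of either of its ends (a boundary peak), or nearer to its end than to the end of any other protein-coding gene within 50 kb. This gave 29 of 14731 peaks in naive alveolar macrophages, 20 of 10861 at day 15 of tumour growth and 4 of 3352 at day 30, which merged into 31 separate regions out of 16069.

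The peaks come from ATAC-seq, in which a transposase cuts open chromatin and leaves sequencing adapters. The cells were tissue-resident alveolar macrophages sorted from C57BL/6 lungs, either naive (4 samples) or from mice given KP tumour cells, a transplanted lung cancer line, through the tail vein and examined after 15 days (4 samples) or 30 days (3 samples). The labels give no sort markers, no animal ages and no injected control, so injection and tumour cannot be told apart. Each group has a single peak list for all its samples. The values below therefore carry no replicate error, and no p-value compares the groups.

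Spi1 encodes PU.1, an ETS factor that opens enhancers in all macrophages and works with the bZIP factors C/EBP-alpha (Cebpa) and C/EBP-beta (Cebpb). Runx1 acts earlier, in blood-forming cells, and helps to switch on Spi1. Irf8 drives monocyte and dendritic cell fate together with PU.1. Maf, Mef2c, Zeb2 and Tfec shape the differentiated state: Maf restrains self-renewal, Mef2c takes part in myeloid fate choice, Zeb2 keeps tissue macrophage identity, and Tfec is a MiT/TFE family factor expressed in macrophages. In alveolar macrophages PU.1 acts downstream of GM-CSF signalling, on which these cells depend.

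The RefSeq promoter sequences used here covered 7 of the 9 genes, with 14 starts in all, and not Spi1 or Maf. The 5 start sites below carried a peak in at least 1 list, over the 250 bases before the start or the next 50. The 250 bases before each are shown. Every peak named reached the bases shown, except the naive one at Cebpb, which began 7 bp after the start. All are GRCm38.p6 sequences from RefSeq, 5′ to 3′ on the gene's strand. Capitals mark matches on either strand to the searched motifs, which were GAGGAAGT for ETS, TTGCGCAA, TTGCNNCAA and TTGCAACA for C/EBP, TGTGGT for RUNX, GAAANNGAA for IRF, TGCTGAC for MAF, TATTTATA and TAAAAATA for MEF2, CAGGTG for ZEB, CACGTG and CATGTG for MiT/TFE, TGANTCA for AP-1, CCAAT, and the GC box GGGCGG.
Cebpa, chr7:35119043-35119292, plus strand, peak in all 3 lists: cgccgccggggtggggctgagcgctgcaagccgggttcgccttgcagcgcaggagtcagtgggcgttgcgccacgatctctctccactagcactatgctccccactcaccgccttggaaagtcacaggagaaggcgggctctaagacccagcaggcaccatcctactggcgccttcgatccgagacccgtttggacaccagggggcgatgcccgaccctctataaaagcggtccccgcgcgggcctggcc
Cebpb, chr2:167688665-167688914, plus strand, peak in the naive and day 15 lists: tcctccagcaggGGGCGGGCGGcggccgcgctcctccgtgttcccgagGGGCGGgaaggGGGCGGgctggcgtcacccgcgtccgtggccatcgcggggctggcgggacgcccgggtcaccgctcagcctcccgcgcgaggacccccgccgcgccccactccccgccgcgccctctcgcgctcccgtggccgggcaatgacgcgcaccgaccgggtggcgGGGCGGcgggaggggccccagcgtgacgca
Runx1 inner start, chr16:92697330-92697579, minus strand, peak in the naive and day 15 lists: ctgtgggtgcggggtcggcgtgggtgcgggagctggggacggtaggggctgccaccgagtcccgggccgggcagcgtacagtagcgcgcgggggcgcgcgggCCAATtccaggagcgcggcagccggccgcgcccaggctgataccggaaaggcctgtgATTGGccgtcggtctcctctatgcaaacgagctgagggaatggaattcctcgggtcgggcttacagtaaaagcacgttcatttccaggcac
Runx1 outer start, chr16:92826075-92826324, minus strand, peak in the naive and day 15 lists: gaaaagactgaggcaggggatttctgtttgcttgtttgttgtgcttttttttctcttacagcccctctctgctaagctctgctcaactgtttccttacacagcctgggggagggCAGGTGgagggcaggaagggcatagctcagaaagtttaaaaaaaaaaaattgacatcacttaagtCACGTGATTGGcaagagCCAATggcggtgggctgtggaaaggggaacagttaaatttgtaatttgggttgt
Tfec, chr6:16898442-16898691, minus strand, peak at day 15 only: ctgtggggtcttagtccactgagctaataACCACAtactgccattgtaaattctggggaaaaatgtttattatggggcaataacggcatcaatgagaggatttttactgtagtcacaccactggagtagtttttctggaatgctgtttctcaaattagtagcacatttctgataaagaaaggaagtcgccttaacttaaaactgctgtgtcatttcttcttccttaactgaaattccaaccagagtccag

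These 5 sequences fall into 2 kinds. The starts of Cebpb, Cebpa and the inner start of Runx1 are rich in CpG, with 41, 22 and 27 CpG in the 250 bases, where the median over 21262 protein-coding starts is 10. The outer Runx1 start and the Tfec start hold 2 CpG each, a number that 84.9% of starts reach. Among starts with fewer than 10 CpG, 8.98% overlapped a naive peak and 6.77% a day 15 peak, against 54.9% and 47.7% of the others. The 2 CpG-poor starts are of the kind that seldom carried a peak. They are also the only 2 of the 5 with a motif other than the GC and CCAAT boxes. The outer Runx1 start holds CAGGTG from 136 to 131 bases and CACGTG from 71 to 66 bases before the start. The Tfec start holds TGTGGT on the opposite strand from 221 to 216 bases before it. Over all starts, CAGGTG is found in 16.9%, CACGTG in 6.63% and TGTGGT in 12.4%. The Cebpa sequence holds none of the motifs searched, the Cebpb sequence 5 GC boxes, of which the first pair overlap, and the inner Runx1 start 2 CCAAT boxes. None of the 14 windows held the ETS, C/EBP, IRF, MAF or MEF2 letters, which are found in 2.23% (GAGGAAGT) down to 0.198% (TTGCGCAA) of all starts, apart from GAAANNGAA in 6.83% and TGCTGAC in 3.54%.

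Depth and scale differ between the lists. The number of tags expected at any position of the genome, here called the genome-wide background, was 0.785 for naive cells, 1.87 at day 15 and 1.64 at day 30. The tumour lists were thus 2.38 and 2.1 times as deep while holding fewer peaks. A tag is a sequenced fragment or read end as the peak caller counted it, and the pileup of a peak is the number of tags over its summit. The relative height used below is the pileup above the genome-wide background, divided by that background. Exact Poisson intervals (95%) are given for pileups and cover counting error only. Fewer cells with a region open and less opening per cell cannot be told apart in bulk samples. Nor does scaling by depth separate a change at a single region from a difference over the whole list. Relative heights were lower in the tumour lists at nearly all shared peaks (median ratio to naive 0.42 at day 15 and 0.28 at day 30).

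**Figure D1:**
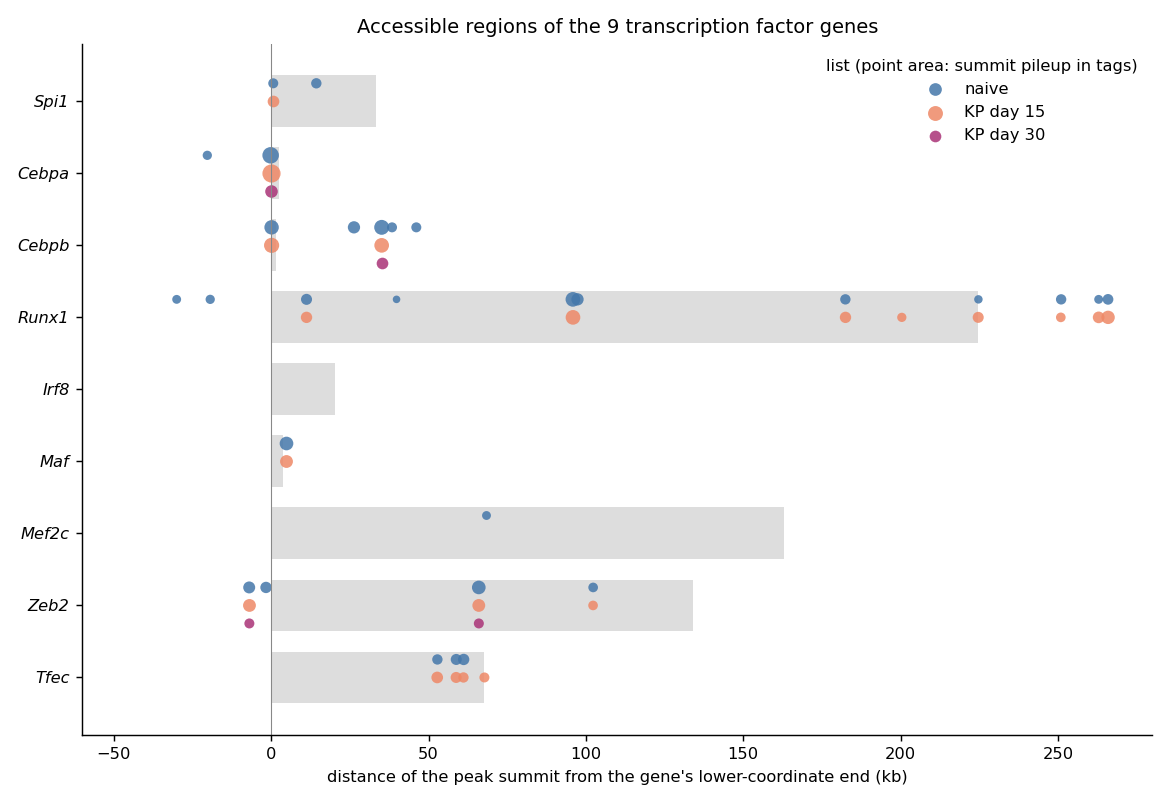
Position of every peak of the 9 genes. The horizontal axis gives the distance of the peak summit from the gene's lower-coordinate end in kb, grey boxes are the gene bodies, colours are the 3 lists and point area is the summit pileup in tags; Runx1 has 11 naive and 8 day 15 points, Irf8 has none, and 4 points remain at day 30.

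A peak by this rule was found for 8 of the 9 genes in naive cells, 7 at day 15 and 3 at day 30, where 45.9%, 38.7% and 16.2% of all protein-coding genes had one. Boundary peaks were present at 5, 6 and 1 of the 9 genes, against 34.7%, 29.6% and 12.8% of all genes. The 5 naive boundary genes were Spi1, Cebpa, Cebpb, Runx1 and Maf. All 5 had one at day 15, where 79.6% of naive boundary genes did, and Tfec was added, as were 3.04% of the genes without a naive one. Only Cebpa kept its boundary peak at day 30, 1 of 5, against 36.5% over all genes, and no member gained one there (0.245% of genes did). The difference between 1 of 5 and 36.5% was not tested.

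Spi1 had the lowest −log10 p of the 5 boundary regions that were called in both the naive and the day 15 lists, in each of them. Its first region lies inside the gene, 539 bp from the lower end in the naive list (chr2:91082913-91083189), with 14 tags (7.65 to 23.5), a fold over local background of 4.12 and a −log10 p of 6.86. At day 15 the region had 19 tags (11.4 to 29.7), a fold of 3.73 and a −log10 p of 7.39. Both peaks are near the bottom of their lists: 7.74% of naive and 11.1% of day 15 peaks had as low a −log10 p. Its second naive region, inside the gene at chr2:91096557-91096907, had 15 tags and a fold of 5.37 and was not called at day 15. No Spi1 region was called at day 30.

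Cebpa had the tallest region of all 9 genes, and the only boundary region present in all 3 lists. The peak spanned the gene's start, with 38 tags (26.9 to 52.2) in naive cells, 46 (33.7 to 61.4) at day 15 and 22 (13.8 to 33.3) at day 30. The fold over local background was 9.65, 8.58 and 6.02, and the −log10 p 28.8, 30.7 and 13.2. Once depth is taken into account the heights are in another order: 47.4 times the genome-wide background for naive cells, against 23.6 at day 15 and 12.4 at day 30. The ratios to naive, 0.50 and 0.26, stand beside medians of 0.42 and 0.28 over all shared peaks. Within its own list the peak stood high each time, above 92.7%, 97.7% and 77.8% of the peaks. The summit was 177 bp before the start in the naive list, 169 bp before it at day 15 and 28 bp before it at day 30, so all 3 fall within the sequence shown above. The day 15 peak was 1089 bp wide, a width reached by 0.175% of day 15 peaks, while the naive peak was 637 bp wide (8.9%) and the day 30 peak 478 bp (16.8%). A second naive region 19982 bp before the gene (chr7:35098867-35099311, 12 tags, fold 7.28) was in neither tumour list.

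Cebpb differs from Cebpa in where its lasting region lies. Its start had 29 tags (19.4 to 41.6) in the naive list and 32 (21.9 to 45.2) at day 15, and no peak at day 30. Those summits lay 126 and 131 bp after the start, outside the sequence shown above. The region present in all 3 lists lay 33395 bp beyond the far end of the gene in the naive list (chr2:167723827-167724205), with 31 tags (21.1 to 44.0), then 30 (20.2 to 42.8) at day 15 and 19 (11.4 to 29.7) at day 30. This distal region had the higher fold of the pair, 10.3 against 5.98 in the naive list and 5.7 against 3.94 at day 15. The start sat on a higher local background, 4.02 tags in the naive list and 7.38 at day 15, than the distal region with 2.1 and 4.44. The summits of the distal region in the naive and day 15 lists were 2 bp apart. Another 3 naive regions beyond the gene, at 24715, 36741 and 44458 bp, with 21, 14 and 14 tags, were in neither tumour list.

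The 50 kb limit cuts through a longer row of peaks beyond Cebpb. With a limit of 100 kb, 8 further naive peaks between 53643 and 86839 bp from the gene count for it, as do 8 at day 15 and 3 at day 30. The tallest by −log10 p at every time lies at chr2:167753911-167754476 in the naive list, with 36 tags and a fold of 8.94, and had 42 tags at day 15 and 22 at day 30. In this stretch Cebpb is the nearest protein-coding gene, which does not show that the peaks act on it.

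Runx1 had more peaks than any other of the 9 genes in the naive and day 15 lists: 11 and 8, and none at day 30. Over all genes, 0.0457% had as many or more naive peaks, and 0.0777% as many or more at day 15. The gene spans 224609 bp, and 842 genes are at least as long, with a median of 1 naive peak and 0 day 15 peaks. Of these 842, Runx1 included, 7 had 11 or more naive peaks and 9 had 8 or more day 15 peaks. The counts take in peaks outside the gene, and the distance to neighbouring genes, which bears on them, was not matched. Its 12 regions fall into 3 stretches. From low to high coordinate, 2 lie beyond the far end of the gene, 7 inside it or at its outer start, and 3 before that start, since the gene is on the minus strand.

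Runx1 is transcribed from a pair of promoters, the outer one used mainly in definitive blood cells and the inner one broadly. The inner start was the taller in the naive list, with 30 tags (20.2 to 42.8) and a fold of 7.18, against 10 (4.8 to 18.4) and 4.82 at the outer start. At day 15 the inner start again had 30 tags with a fold of 5.94, and the outer start had 17 (9.9 to 27.2) with a fold of 4.74. The relative height of the inner start was thus 37.2 and then 15.0, and that of the outer start 11.7 and then 8.09. The pileup intervals of the pair did not overlap in the naive list and overlapped at day 15. They describe each list on its own, and a difference between the lists was not tested. The summits lay 4 bp after the inner start in the naive list and 26 bp before it at day 15. At the outer start they lay 94 and 28 bp before it.

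Before the outer start, 3 regions were called in both lists, at 26226, 38211 and 41151 bp in the naive list. Their naive pileups were 15, 11 and 16 tags and their day 15 pileups 13, 19 and 25. Inside the gene, regions of 17 and 15 naive tags had 18 tags each at day 15. The other 3 inside and the 2 beyond the far end differ: a peak of 21 tags with its summit 1462 bp before the inner start, one of 8 tags, and those of 11 and 12 tags beyond the gene were only in the naive list, and a peak of 12 tags at chr16:92801659-92802009 was only in the day 15 list.

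Irf8 had no peak by the rule in any list. Its nearest naive peak lay 49912 bp from the gene at chr8:120685958-120686446, and its nearest gene end was that of Cox4i1. At day 15 the same region was called 50009 bp away, and at day 30 the nearest peak was 146858 bp away. The first Irf8 start holds 29 CpG, as many as 8.77% of starts, and thus belongs to the class of which 54.9% overlapped a naive peak. No peak was called at this start, which is no measure of how open it was below the threshold.

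Maf had a single region, outside the gene and 906 bp from its higher-coordinate end in the naive list (chr8:115707800-115708299). The naive pileup was 26 tags (17.0 to 38.1) with a fold of 8.49. At day 15 it was 23 (14.6 to 34.5) with a fold of 6.86, and the region was not called at day 30. Its summits were 6 bp apart. Mef2c also had a single region, found in the naive list only, inside the gene at chr13:83572075-83572335, with 11 tags and a fold of 5.45. Its summit lay 1458 bp before the innermost of the 3 annotated Mef2c starts, none of which overlapped a peak in any list.

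Zeb2 held 2 of the 4 regions that lasted to day 30, neither of them at a start. The region deep inside the gene (naive chr2:45049251-45049656) had 26 naive tags (17.0 to 38.1), 23 (14.6 to 34.5) at day 15 and 14 (7.65 to 23.5) at day 30, with folds of 9.31, 7.32 and 5.21. The other lies 6702 bp beyond the gene's far end (naive chr2:44976435-44976810) and had 20, 23 and 14 tags, with folds of 6.86, 6.19 and 4.84. A naive region of 18 tags 1548 bp beyond the far end was not called later, and a region of 13 tags inside the gene was called with 13 tags at day 15. None of the 4 annotated Zeb2 starts overlapped a peak in any list.

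Tfec was the only member with more peaks at day 15, 4, than in the naive list, 3. The 3 shared regions lie in a row inside the gene, the naive ones 6193, 8602 and 14606 bp from the end that holds the start, with 18, 17 and 15 naive tags and 15, 17 and 19 at day 15. The fourth spanned the start (chr6:16898420-16898769), with 14 tags (7.65 to 23.5), a fold of 4.17 and a −log10 p of 6.94, and 7.08% of day 15 peaks were as weak. At the naive depth these 14 tags correspond to 5.87, and no naive peak had fewer than 6. The 12 tags of the Runx1 region found only at day 15 correspond to 5.03. Both values are scaled by depth alone. They leave out that relative heights at shared peaks were lower at day 15 than in the naive list (median ratio 0.42). They therefore do not show that the naive list could not have held these peaks. The Tfec and Runx1 peaks were the only 2 of 20 day 15 peaks absent from the naive list, where 12.8% of all day 15 peaks were.

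**Figure D2:**
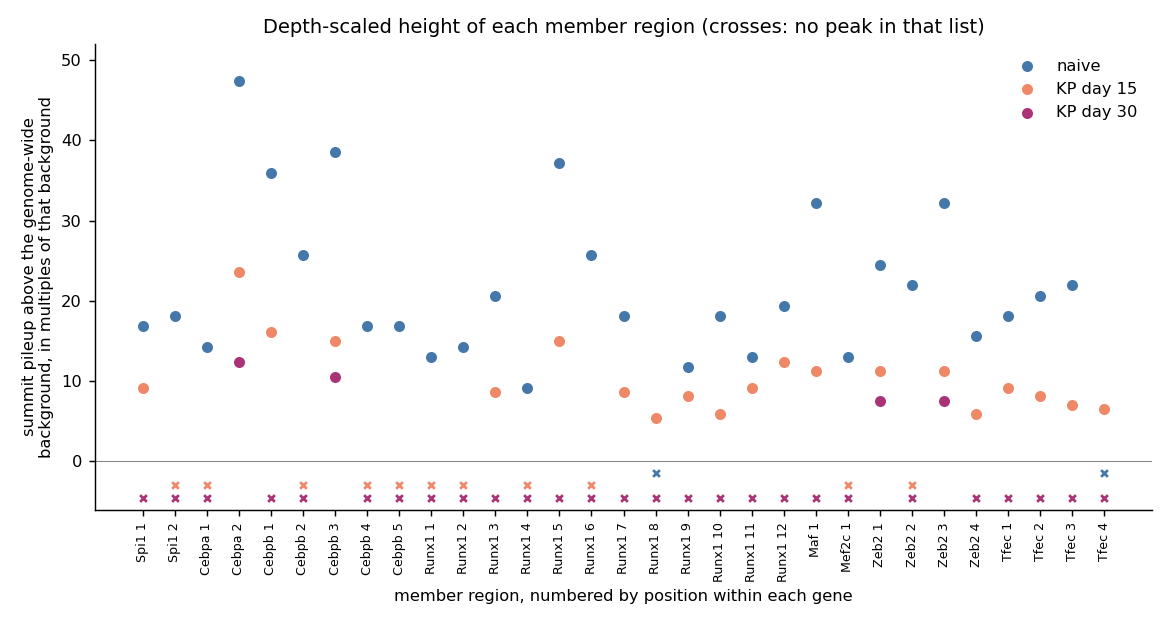
Relative height of the 31 regions in the 3 lists. The vertical axis is the summit pileup above the genome-wide background in multiples of that background, each column is a region numbered by position within its gene, and crosses below 0 mark lists without a peak there; every region in more than 1 list was highest in the naive list, from Cebpa region 2 at 47.4 down to Runx1 region 9 at 11.7.

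In the whole set, 18 of the 29 naive peaks were overlapped by a day 15 peak and 4 by a day 30 peak. Over all naive peaks these shares were 64.1% and 21.7%. At day 15 that is close to the share over all peaks. All 4 peaks left at day 30 were also in both other lists, which is 4 of the 20 day 15 peaks, against 28.7% of all day 15 peaks overlapped at day 30. Of the 31 regions, 14 were in the naive and day 15 lists, 11 in the naive list alone, 4 in all 3 and 2 in the day 15 list alone, where 39.1%, 32.2%, 19.0% and 8.37% of all regions were. Of the 24 naive peaks that are not boundary peaks 13 were overlapped at day 15 and 3 at day 30. The same shares over all naive peaks farther than 1000 bp from a gene end were 54.0% and 11.4%. The sets are small, and no share of the members was tested against these.

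Strong naive peaks were found again more often than weak ones, over all peaks and among the members. With naive peaks put in 4 equal bins by −log10 p, the 5 members in the strongest bin were all overlapped at day 15 and 3 of them at day 30, where 97.0% and 57.7% of all peaks in that bin were. In the weakest bin 3 of 7 were overlapped at day 15 and 0 of 7 at day 30, against 32.1% and 3.53%. The strongest bin held the Cebpa start, the distal Cebpb region, the inner Runx1 start, the inner Zeb2 region and Maf. With all lists held to their strongest 3352 peaks, these 5 regions were the naive members and all 5 were also day 15 members, together with the farthest region before Runx1.

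**Figure D3:**
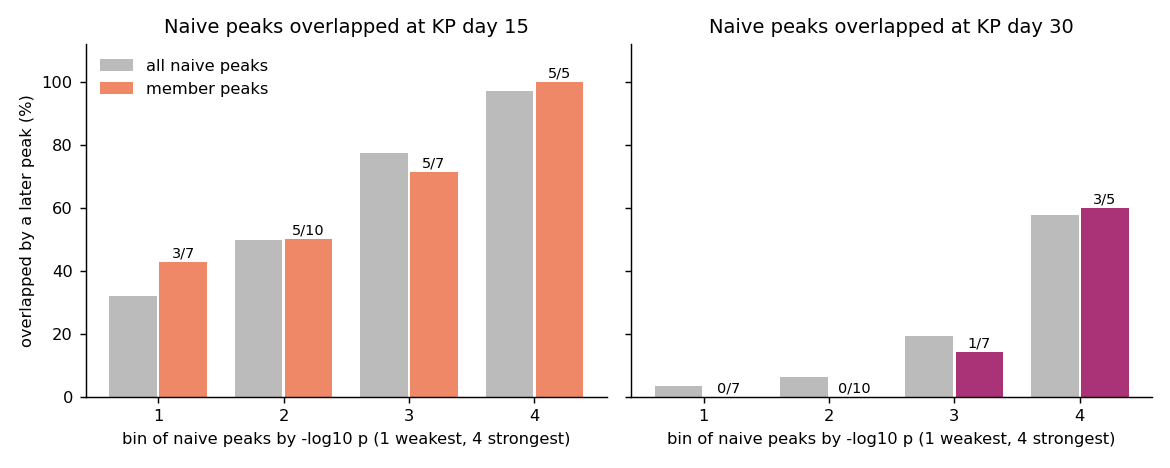
Share of naive peaks overlapped by a day 15 peak (left) or a day 30 peak (right), by bin of the naive list in order of −log10 p. Grey bars are all naive peaks, coloured bars the peaks of the 9 genes with their counts; both rise from the weakest bin to the strongest.

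Where a region was shared, its relative height was lower in the tumour lists, as it was at nearly all peaks. The ratio of day 15 to naive height had a median of 0.43 over 18 member regions, from 0.32 in the shared Tfec region nearest that gene's start to 0.70 in the middle region before Runx1. Over all 9443 shared naive peaks the median was 0.42, with an interquartile range of 0.35 to 0.53, and 9 of the 18 members were above it. A higher relative height at day 15 than in the naive list was found at 0 of 18 members and 0.402% of all shared peaks. At day 30 the ratios were 0.26 at the Cebpa start, 0.27 at the distal Cebpb region, and 0.31 and 0.23 at the outer and inner Zeb2 regions, with a median of 0.27 over these 4 and 0.28 over 3193 shared peaks (0.251% of which were higher than in the naive list, and 0 of the 4 members).

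**Figure D4:**
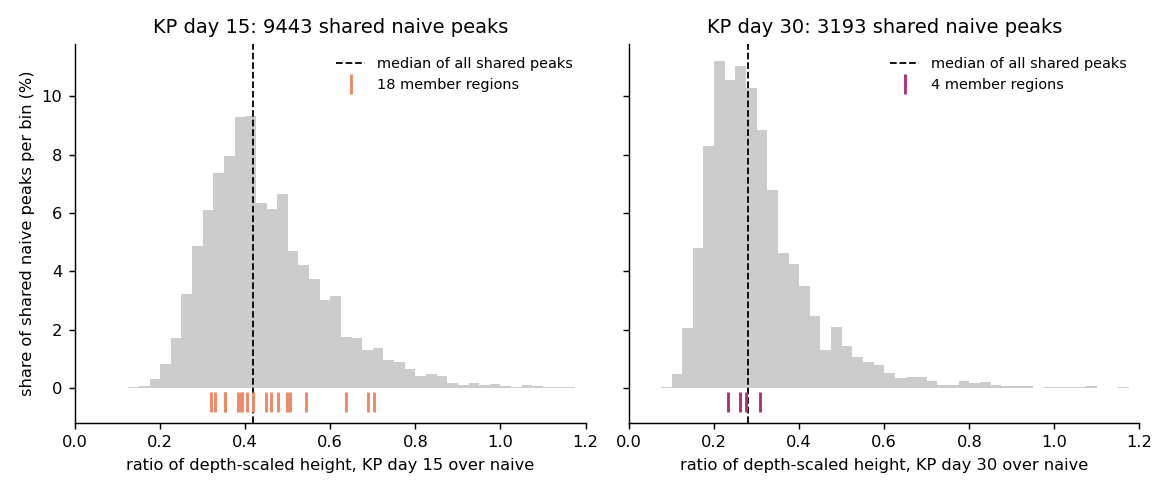
Ratio of relative height in a tumour list to that in the naive list. Grey bars give the share of all shared naive peaks per bin, the dashed line their median (0.42 at day 15, 0.28 at day 30) and coloured ticks the member regions; 4 peaks at day 15 and 2 at day 30 lie beyond the axis limit of 1.2.

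The members with the highest day 15 ratios were at Runx1: 0.70 and 0.64 in the farther regions before the gene and 0.69 at the outer start, above 94.0%, 89.2% and 93.1% of shared peaks. Shared peaks with few naive tags had higher ratios in general. Among all those with the same naive pileup as these 3 regions (11, 16 and 10 tags) the medians were 0.58, 0.44 and 0.62, and the 3 regions were above 74.8%, 90.7% and 62.2% of them. By this measure the Cebpa start stood highest of the 18 regions, above 95.9% of the 74 shared peaks with 38 naive tags. Its ratio was 0.50 against their median of 0.37. At day 30 it was above 74.6% of 63 such peaks, with 0.26 against 0.22. As the highest of 18, its place was not tested. At day 15 the nearest Runx1 region before the gene was low, with 0.33, above 4.9% of peaks with 15 tags. So was the weaker Zeb2 region inside the gene, with 0.38, above 5.92% of peaks with 13 tags. Over the 18 regions, 10 were above the median for their naive pileup at day 15, and 2 of 4 at day 30. Counting error alone is wide: the ratio of whole pileups at the Cebpa start was 0.51 (exact 95% interval 0.32 to 0.80), and that of the outer Runx1 start 0.71 (0.31 to 1.74).

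At the median ratio of shared peaks, the 11 naive regions not called at day 15 would have had 9.06 to 22.0 tags there, and the lowest pileup of any day 15 peak was 9. At day 30 the 25 regions not called would have had 5.87 to 18.7 tags, of which 8 are under the lowest pileup of that list, 9. The tallest were the inner Runx1 start with 18.7, the Cebpb start with 18.2 and Maf with 16.4. That median comes only from peaks called in both lists. At day 15, 0 of the 11 were under the lowest pileup of the list. That lowest pileup holds for the list as a whole and is not the limit where the local background is higher. An uncalled region has no pileup in these lists, so its absence does not measure how closed it was.

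Of 51 further transcription factor genes of the same families and of blood cell fate, 26 had a naive boundary peak, 23 a day 15 one and 8 a day 30 one. Over all protein-coding genes the shares were 34.7%, 29.6% and 12.8%. At day 15, 22 of the 26 kept theirs, beside 79.6% of all genes with a naive one. The 4 that lost it include Cebpz, Irf3 and Irf4. Irf5 was added, as were 3.04% of all genes without a naive one. Of the 8 with a boundary peak in all 3 lists the one most like Cebpa in relative height was Id2, an inhibitor of basic helix-loop-helix factors, with 42.3, 16.6 and 13.6 (Euclidean distance 0.55 on the log2 scale over the 3 lists). Of 30 macrophage genes that such factors are known to act on, 15 had a naive boundary peak, 14 a day 15 one (12 kept, 2 added) and 4 a day 30 one. The shares over all genes are those given above, and no count in either list was tested against them.

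As a check on the cells, 11 of 15 alveolar macrophage marker genes had a peak by the same rule in naive cells, 8 at day 15 and 3 at day 30, with 35, 20 and 3 peaks in all, where 45.9%, 38.7% and 16.2% of all genes had one. Boundary peaks were present at 6, 2 and 1 of the 15, against 34.7%, 29.6% and 12.8% of all genes. B cell (7 genes) and fibroblast (4 genes) markers had no peak in any list, the 7 epithelial and tumour markers had a peak at 2, 2 and 0 genes and a boundary peak at none, and 1 of 4 endothelial markers had a peak in the naive and day 15 lists. T cell markers had a peak, at the boundary, at 1 of 8 genes in both earlier lists and none later. Neutrophil markers had a peak at 3, 3 and 1 of 7 genes and a boundary peak at 2, 2 and 1, and monocyte and interstitial macrophage markers a peak at 5, 5 and 1 of 7 and a boundary peak at 0, 1 and 0. In the naive and day 15 lists, most alveolar and most monocyte and interstitial macrophage markers had a peak. The check therefore does not tell these cell types apart. The marker lists were chosen with earlier results of these data known, so this check is not independent of them. An accessible region is no proof of expression, and the part of other cells in the values above was not tested.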

How the data were processed

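ATAC-seq peak lists of 11 samples were used, 1 list per group. The submitters' processing notes name Bowtie2 (2.3.4.1), MACS2 (2.1.1) and the mm10 build; filters, tag shifting and pooling are not given in the sources used here, and the design text speaks of triplicates where the labels number 4, 4 and 3. The deposited columns have no header: from their values they hold a score of about 10 times the −log10 q, the fold over local background (a ratio), the −log10 p-value, the −log10 q-value, and the summit position. The fold and −log10 p are the authors' own and describe peaks within their list.

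Pileup and local background were recovered from the fold, which is their ratio with 1 added to each, together with the p-value as an upper Poisson tail. Every p was met within 0.001 on the −log10 scale; 49 naive peaks had a second solution under the lowest background, which was discarded. In 14722, 10849 and 3342 simulated peaks with the naive, day 15 and day 30 backgrounds, 100.0% of pileups came back. The background floor was taken as depth (naive 39.2, day 15 93.5 and day 30 82.2 tags per 10 kb). Peaks overlapped at 1 bp or more. Shares came from all protein-coding genes or all peaks. Motifs were searched on both strands of the 250 bases before each RefSeq start; a start had a peak when 1 overlapped those bases or the next 50. Python 3.11.15, numpy 2.4.6, pandas 2.3.3, scipy 1.17.1 and matplotlib 3.10.9 were used.

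No test between groups was made, since each has 1 list. Every member was named; other genes were named as the nearer gene of a peak, as the related factor most like a member present in all lists, or as up to 3 related factors per direction, in list order, that changed status by day 15. The related factor, macrophage target and marker lists, like the members, were chosen with earlier results of these data known. Alternatives were other distances, overlaps, thresholds, scalings, the nearest gene taken among all annotated genes, and lists held to equal length.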

Additional observations from a re-analysis of the deposited data

How the results depend on the processing

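Of 39 alternative counts, 31 stayed within 1.5 times the count given. With a boundary of 500 bp, 3 members had a naive boundary peak and 5 a day 15 one. The naive regions of Spi1 (539 bp from the end) and Maf (906 bp) then fell outside, while the day 15 Spi1 peak (484 bp) stayed. That all 5 naive boundary genes had one at day 15 thus holds for the 1000 bp boundary. The share over all genes at 500 bp was not computed. With lists of equal length, boundary peaks were found at 2 members in the naive and 2 in the day 15 list, and member peaks numbered 5 and 6. Of the 5 naive member peaks, 5 were kept at day 15, against 70.5% of all naive peaks at that length. At day 30, 3 of the 5 were kept, against 60.2%, where the share over all peaks with full lists was 21.7%. Of the 6 day 15 member peaks, 1 was absent from the naive list of that length. It was the farthest region before Runx1, which had a peak of 16 tags in the full naive list. The share over all day 15 peaks at that length was not computed. A window of 100 kb gave 7 member peaks at day 30. With the nearest gene taken among all annotated genes, member peaks numbered 22, 19 and 3, against 29, 20 and 4. The peaks that dropped out lay outside the members and nearer to another annotated gene. Whole pileups gave a median ratio of 0.45 at day 15 and 0.28 at day 30 (against 0.43 and 0.27), and scaling by the median of all shared peaks gave 1.03 at day 15 and 0.96 at day 30. The equal-length and 100 kb counts of peaks follow from fewer peaks or a longer window by construction. No paired analysis was possible because each group has a single peak list that carries no replicate number, and for the same reason no sample could be left out. The naive list had the lowest depth of the 3. There the lowest pileup of any peak was 6 tags, and the 29 peaks of these genes had a median of 15. Which list depth limits most was not tested.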
